A study of Homo sapiens with 4 samples.

Results

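The genes described here build the HLA class I molecule and load it with peptide: HLA-B, HLA-C, HLA-E, HLA-F, B2M, TAP1, TAPBP, ERAP1 and PSMB8. They are 9 of the 27685 gene IDs in the deposited tables, taken by name through their Entrez IDs. The naming rule used no measured values, but the members were chosen with earlier results of these data known. RNA came from the cell line NCC-IT-A3, labelled as embryonal carcinoma, a germ cell tumour whose cells resemble those of the early embryo. The barasertib group had received 100 nM barasertib, an inhibitor of the mitotic kinase Aurora B, for 4 days, and the DMSO group had received the solvent. Both groups grew in RPMI medium with 10% serum, and each holds 2 libraries. Whether the 2 libraries of each group were grown as separate cultures is not stated, so p-values reflect the scatter of these samples alone, and that scatter may be technical.

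A class I molecule consists of a heavy chain, encoded by an HLA gene, and the light chain beta-2 microglobulin. It displays peptides cut by the proteasome to cytotoxic T cells, and its presence also restrains natural killer cells. Peptides enter the endoplasmic reticulum (ER) through the transporter made of TAP1 and TAP2, are trimmed by aminopeptidases such as ERAP1, and are loaded with the help of tapasin (TAPBP), calreticulin, calnexin and the disulfide isomerase PDIA3. Interferon raises many of these genes together, among them PSMB8, a catalytic subunit that replaces a standard subunit in the immunoproteasome. Embryonal carcinoma and pluripotent cells are known for low class I levels.

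Levels are given in TPM, a unit that corrects each gene for its length and gives each library the same total, so that levels can be compared between genes. Depth, taken as aligned bases from the ratio of coverage to FPKM, was 4.19 to 4.54 Gb per library. Changes are differences of mean log2(TPM + 1) between barasertib and DMSO, which understates the change of low genes, and were tested with limma over the 13938 genes averaging 1 TPM or more. A gene is said to rise or fall only where the Benjamini-Hochberg adjusted p was under 0.05. The median change of all tested genes was 0.11 in TPM, and -0.01 after median-of-ratios scaling and after quantile normalisation. In TPM 3071 genes rose and 1037 fell, against 1534 and 1891 after median-of-ratios scaling and 1649 and 1590 after quantile normalisation. Of 8 leukocyte markers, 7 were below 1 TPM in every library and PTPRC, CD3E and MS4A1 were at 0. All 10 embryonal carcinoma markers passed the level filter; 5 rose (POU5F1, NANOG, LIN28A, ALPL and DPPA4) and 2 fell (SOX2 and CRIPTO), and of these NANOG, SOX2 and CRIPTO did so under all 3 scalings. Their sum, 6511 to 7243 TPM per library, was mostly POU5F1, and PODXL was at 506 and 167 TPM in the barasertib libraries and 320.1 and 326 TPM in the DMSO libraries. In such bulk RNA, fewer cells of a type and less RNA per cell cannot be told apart.

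The light chain message and 2 of the 4 heavy chain messages rose with barasertib, tapasin rose and the trimming enzyme fell. Among the 9 genes, 7 passed the level filter; 4 of them rose (HLA-B, HLA-F, B2M and TAPBP) and 1 fell (ERAP1), against 22.0% of all tested genes higher and 7.44% lower. Under TPM, median-of-ratios scaling and quantile normalisation alike, B2M and TAPBP rose and ERAP1 fell, against 10.0% of all tested genes higher and 7.05% lower. The median change of the 7 was 0.49, beside 0.11 for all tested genes. TAP1 and PSMB8, which did not reach the filter, lay at or near 0 in both groups. With 1 library left out at a time (barasertib replicates 1 and 2, then DMSO replicates 1 and 2), 2, 1, 3 and 4 members rose and 1 fell each time.

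**Figure D1:**
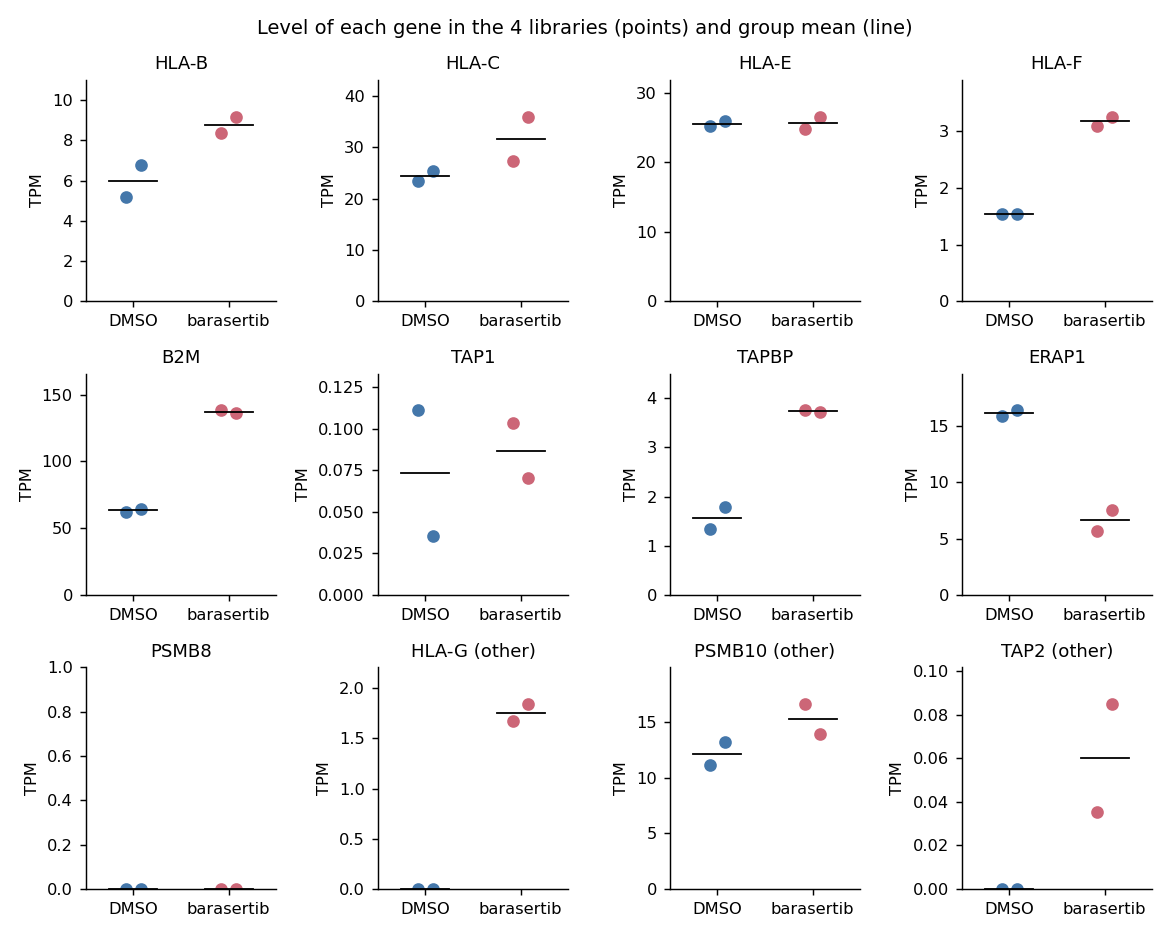
Each panel plots the TPM of 1 gene (vertical axis, from 0) in the 4 libraries, with points for libraries and a line for the group mean; HLA-G, PSMB10 and TAP2 are shown for comparison. B2M, HLA-F and TAPBP lie clear of DMSO in both barasertib libraries, ERAP1 lies below it, HLA-E overlaps, and TAP1 and PSMB8 stay at or near 0.

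The upstream sequences of 6 members, from the RefSeq promoter table (GRCh38.p14), show the letters through which class I genes are known to be read: a site for interferon regulatory factors (ISRE), an X2 box bound by CREB and ATF proteins, and a CCAAT box bound by NF-Y. They are shown because B2M and the HLA genes carry related blocks although B2M lies on another chromosome. Each runs 5′ to 3′ on the gene's strand, and capitals mark the ISRE core (GAAA, any 2 bases, GAAA), the X2 core TGACG and CCAAT on either strand, so that a CCAAT box on the other strand reads ATTGG and the ISRE core starts with TTTC. The stretches end 41 bases before the annotated start, except for TAPBP, which ends 1 base before it. Only the B2M stretch holds every kind of marked site, and each of the others holds a part of them.
B2M, chr15:44711347-44711476, plus strand: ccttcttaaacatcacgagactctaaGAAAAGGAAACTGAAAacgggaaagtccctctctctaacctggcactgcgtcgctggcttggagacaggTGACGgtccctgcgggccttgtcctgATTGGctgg
HLA-B, chr6:31357220-31357349, minus strand: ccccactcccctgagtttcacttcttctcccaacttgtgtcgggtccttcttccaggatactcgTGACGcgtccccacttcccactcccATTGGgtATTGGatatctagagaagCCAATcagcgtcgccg
HLA-C, chr6:31272133-31272262, minus strand: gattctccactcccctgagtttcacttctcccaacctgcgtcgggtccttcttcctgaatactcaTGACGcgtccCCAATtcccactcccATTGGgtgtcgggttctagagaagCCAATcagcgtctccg
HLA-F, chr6:29723264-29723393, plus strand: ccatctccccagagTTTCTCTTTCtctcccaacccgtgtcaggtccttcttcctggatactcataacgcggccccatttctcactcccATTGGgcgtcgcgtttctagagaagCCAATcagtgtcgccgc
TAPBP, chr6:33314079-33314138, minus strand: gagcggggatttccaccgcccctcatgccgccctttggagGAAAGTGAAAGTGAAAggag
TAP1, chr6:32853745-32853874, minus strand: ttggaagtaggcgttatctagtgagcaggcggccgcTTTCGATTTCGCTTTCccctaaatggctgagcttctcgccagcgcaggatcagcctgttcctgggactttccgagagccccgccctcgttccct

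Of the 9 genes, 8 have promoter windows in that table, 11 windows of 300 bases in all, since some genes have several starts. The ISRE core was found on either strand in 6 of the 11 windows, of 6 genes (B2M, ERAP1, HLA-F, PSMB8, TAP1 and TAPBP), and in 3.57% of the 35116 windows in the table. The genes that hold them include ones that rose (B2M, HLA-F, TAPBP), one that fell (ERAP1) and the ones at or near 0 (TAP1, PSMB8). The shorter core AANNGAAA, which every ISRE core contains, was in 9 of the 11 windows and in 22.8% of all. An X2 core followed after 10 to 30 bases by the reversed CCAAT box on the gene's strand was found in B2M, HLA-B and HLA-C, that is 3 of the 11 windows, and in 0.410% of all windows. HLA-F holds the reversed CCAAT box of that block but not the X2 core. The X2 core alone was in 24.6% and the CCAAT box alone in 34.6% of all windows. These matches describe letters, and neither a match nor its absence shows what binds there.

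B2M encodes the light chain shared by all class I heavy chains. On the log2(TPM + 1) scale it had the largest upward change of the 9 genes, while ERAP1 changed more, downwards (-1.18). TAPBP, a low gene, had a larger ratio of mean TPM than B2M (2.39 against 2.16). With a pseudocount of 0.1 TPM its change was also larger (1.22 against 1.11). B2M stood at 138 and 136 TPM in the barasertib libraries and at 62.5 and 64.5 TPM in the DMSO libraries. The replicates differed by a few TPM and the groups were far apart. The log2 change was 1.10 (SE 0.05, 95% interval 0.98 to 1.22, limma adjusted p = 0.000249), a 2.14-fold difference. Among the tested genes, 237 had a larger upward change. It was 0.96 after median-of-ratios scaling and 1.00 after quantile normalisation. The B2M call held under all 16 alternative settings (adjusted p of 6.58e-06 to 0.00818). The settings on row choice could not change its values, since all rows lie on main chromosomes and B2M has 1 row. Mean read depth over the gene was 116 to 275. In the hg19 coordinates of the files, B2M (gene ID 567) spans chromosome 15 from 45003685 to 45010357, while the HLA genes lie together on chromosome 6.

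HLA-C and HLA-E were the most abundant heavy chain messages among the 9 genes. HLA-C, a classical heavy chain that also engages killer cell receptors, was at 27.3 and 35.9 TPM with barasertib and 23.5 and 25.3 TPM with DMSO. Both barasertib values were above both DMSO values, but they differed from each other more than the lower of them differed from DMSO. The HLA-C change of 0.35 (SE 0.13, 95% interval 0.03 to 0.67) did not pass the test (limma adjusted p = 0.0932). Without barasertib replicate 1 it was 0.54 and passed (limma adjusted p = 0.0306; 0.0306 to 0.266 across the alternatives). HLA-E, a nonclassical heavy chain recognised by natural killer cell receptors, was at 24.8 and 26.5 TPM with barasertib and 25.2 and 25.9 TPM with DMSO. Its groups overlapped, and its change was 0.00 (0.0044, 95% interval -0.17 to 0.18; limma adjusted p = 0.970). After median-of-ratios scaling it was -0.13 and after quantile normalisation -0.09, neither of which passed the test.

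HLA-B and HLA-F were lower in abundance and passed the test in TPM. HLA-B, a classical heavy chain, was at 8.34 and 9.18 TPM with barasertib and 5.20 and 6.79 TPM with DMSO, a change of 0.49 (SE 0.14; limma adjusted p = 0.0431). The groups did not overlap, but HLA-B did not pass after median-of-ratios scaling (0.37, limma adjusted p = 0.102) or quantile normalisation (0.33, limma adjusted p = 0.139). Nor did it pass without barasertib replicate 1 (limma adjusted p = 0.111), barasertib replicate 2 (0.174) or DMSO replicate 1 (0.151), and the values across the alternatives were 0.0195 to 0.174. HLA-F, a nonclassical heavy chain, was at 3.09 and 3.25 TPM with barasertib and 1.54 and 1.53 TPM with DMSO. That was a change of 0.72 (SE 0.15; limma adjusted p = 0.0157), with replicates close to each other in both groups. The HLA-F call was lost after quantile normalisation (0.51, limma adjusted p = 0.0519), without barasertib replicate 1 (limma adjusted p = 0.0707) and without barasertib replicate 2 (0.0803), and across the alternatives its adjusted p was 0.00971 to 0.0803. Read depth over HLA-F was only 2.64 to 4.86, so few fragments stand behind its values.

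HLA-G, a heavy chain best known from the placenta, was listed at 0 in both DMSO libraries and at 1.68 and 1.84 TPM in the barasertib libraries, with read depths of 3.33 and 3.58. Its mean was below the filter; without a filter it passed the test (limma adjusted p = 0.00812 over 20051 genes). The HLA genes are near-identical over long stretches, and how reads matching several of them were assigned was not given in the sources used here, so the split of reads between HLA-G and the other heavy chain genes is uncertain.

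Summed over HLA-B, HLA-C, HLA-E and HLA-F, heavy chain messages came to 63.5 and 74.9 TPM with barasertib and to 55.5 and 59.5 TPM with DMSO. The groups did not overlap, and the barasertib libraries differed more from each other than the DMSO libraries did. The share of HLA-E in this sum was 39.0% and 35.4% with barasertib and 45.5% and 43.5% with DMSO, and the share of HLA-C was 43.0% and 48.0% against 42.4% and 42.5%. B2M per unit of this heavy chain message was 2.18 and 1.82 with barasertib and 1.13 and 1.08 with DMSO. A scaling factor common to all genes of a library leaves this ratio unchanged, while quantile normalisation can change it. Both barasertib ratios were above both DMSO ratios, and the group means differed by a factor of 1.81. An exact two-sided permutation test gave p = 0.333 for this ratio, for the heavy chain sum and for the shares of HLA-E and HLA-C, the smallest p that 2 libraries against 2 allow.

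**Figure D2:**
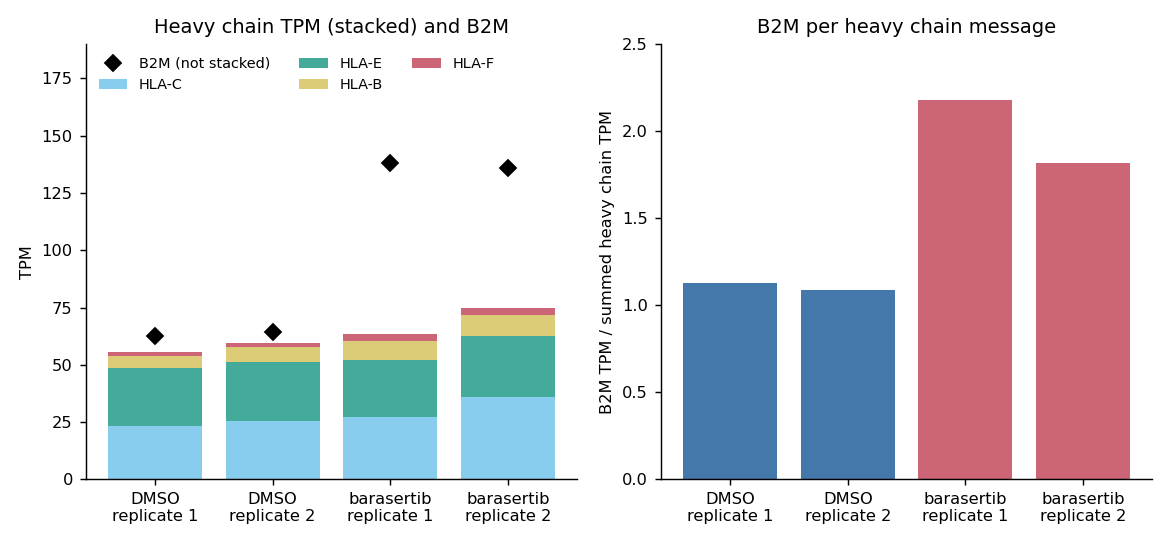
Left, bars stack the TPM of the 4 HLA heavy chain genes in each library and diamonds give B2M on the same axis; right, bars give B2M TPM divided by the summed TPM of these 4 genes, per library. The sum is 55.5 and 59.5 TPM with DMSO and 63.5 and 74.9 TPM with barasertib, and the ratio is 1.13 and 1.08 in the DMSO libraries and 2.18 and 1.82 in the barasertib libraries.

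The genes of peptide supply and loading moved in opposite directions. TAPBP (tapasin), which holds the empty class I molecule next to the transporter, was at 3.75 and 3.72 TPM with barasertib and 1.34 and 1.78 TPM with DMSO. Its change was 0.89 (SE 0.16, 95% interval 0.51 to 1.27; limma adjusted p = 0.00996), with both barasertib values above both DMSO values. It passed after median-of-ratios scaling (0.80) and quantile normalisation (0.68), but not without barasertib replicate 1 (limma adjusted p = 0.0630) or barasertib replicate 2 (0.0602), and across the alternatives its adjusted p was 0.00429 to 0.0630. Read depth over TAPBP was 2.28 to 6.78. Per 100 TPM of B2M, TAPBP stood at 2.72 and 2.73 TPM with barasertib and at 2.15 and 2.76 TPM with DMSO, so this ratio overlapped between the groups.

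ERAP1, the ER aminopeptidase that trims peptides to the length class I binds, fell. It was at 5.71 and 7.54 TPM with barasertib and 15.9 and 16.4 TPM with DMSO. The barasertib libraries differed from each other more than the DMSO libraries did, and both lay well under DMSO. The change was -1.18 (SE 0.13, 95% interval -1.50 to -0.86; limma adjusted p = 0.00233), -1.30 after median-of-ratios scaling and -1.31 after quantile normalisation. The ERAP1 call held under all 16 alternative settings (adjusted p of 0.000299 to 0.0181). As for B2M, the settings on row choice could not change its values. ERAP1 (gene ID 51752) spans chromosome 5 from 96096514 to 96149848 in hg19 and overlaps CAST on the opposite strand, named here after its values were seen. CAST was at 24.8 ± 0.515 TPM with barasertib and 26.3 ± 1.26 TPM with DMSO (SD, n = 2; limma adjusted p = 0.420), and whether the gene summary used strand was not given in the sources used here.

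TAP1, which pairs with TAP2 to form the peptide transporter, was at 0.103 and 0.0703 TPM with barasertib and 0.111 and 0.0352 TPM with DMSO. Its coverage stood at 3, 2, 3 and 1 times the lowest coverage in the barasertib libraries 1 and 2 and the DMSO libraries 1 and 2, so a handful of fragments lie behind these values and no difference was detectable at this depth. Its partner TAP2 was at 0.0354 and 0.0848 TPM with barasertib and listed at 0 with DMSO. PSMB8, the immunoproteasome subunit, was listed at 0 in all 4 libraries, as was PSMB9, its partner in the same particle. PSMB10, the remaining immunoproteasome catalytic subunit, was at 16.6 and 13.9 TPM with barasertib and 11.1 and 13.2 TPM with DMSO (0.30, limma adjusted p = 0.111). The standard catalytic subunits PSMB5, PSMB6 and PSMB7 summed to 817 and 773 TPM with barasertib and to 676 and 670 TPM with DMSO. PSMB6 and PSMB7 rose, by 0.35 and 0.21, and only PSMB6 did so under all 3 scalings. With libraries left out in the same order, 1, 2, 1 and 1 of the 3 rose.

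B2M stood highest of the 9 genes by TPM in every library, and the order below it differed between the groups. With DMSO, group means ran from B2M at 63.5 ± 1.44 TPM through HLA-E (25.6 ± 0.449), HLA-C (24.4 ± 1.26), ERAP1 (16.1 ± 0.335), HLA-B (5.99 ± 1.12), TAPBP (1.56 ± 0.310) and HLA-F (1.53 ± 0.00601) to TAP1 and PSMB8 (SD, n = 2). HLA-E and HLA-C overlapped there, as did TAPBP and HLA-F. With barasertib the order was B2M at 137 ± 1.39 TPM, HLA-C (31.6 ± 6.14), HLA-E (25.7 ± 1.26), HLA-B (8.76 ± 0.592), ERAP1 (6.63 ± 1.30), TAPBP (3.73 ± 0.0211) and HLA-F (3.17 ± 0.115), and no 2 neighbours in that order overlapped. ERAP1 stood above HLA-B in both DMSO libraries and below it in both barasertib libraries. HLA-E likewise stood above HLA-C in both DMSO libraries, narrowly in replicate 2 (25.9 against 25.3 TPM), and below it in both barasertib libraries.

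Other genes of class I processing, from a list of 16, included 3 abundant ER chaperone and isomerase genes that fell. Of the 11 that were tested 2 rose (PSME3 and THOP1) and 3 fell (CALR, CANX and PDIA3), against 22.0% of all tested genes higher and 7.44% lower, at a list median of -0.09 beside 0.11. THOP1, a cytosolic peptidase, was at 82.1 and 78.3 TPM with barasertib and 67.2 and 66.4 TPM with DMSO (0.26, limma adjusted p = 0.0173). Neither PSME3 nor THOP1 rose after the other 2 scalings, and neither call held without barasertib replicate 1. The 3 that fell are chaperones and an isomerase that act on the heavy chain as it folds or is loaded. They fell under all 3 scalings and stayed lower with any 1 library left out. CALR (calreticulin) was at 1132 and 1164 TPM with barasertib and 2793 and 2772 TPM with DMSO (-1.28, limma adjusted p = 4.05e-05). PDIA3 was at 467 and 486 TPM against 992 and 1030 TPM (-1.08, limma adjusted p = 0.000121), and CANX (calnexin) at 654 and 725 TPM against 1207 and 1227 TPM (-0.82, limma adjusted p = 0.000544). These 3 summed to 2253 and 2374 TPM with barasertib and 4992 and 5030 TPM with DMSO, so that TAPBP was higher and these 3 genes lower in the same libraries. The proteasome activators PSME1 and PSME2, which interferon also raises, did not pass the test (-0.12 and 0.10, limma adjusted p of 0.182 and 0.241); after median-of-ratios scaling PSME1 fell (-0.26, limma adjusted p = 0.0305, its lowest across the alternatives, up to 0.583).

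**Figure D3:**
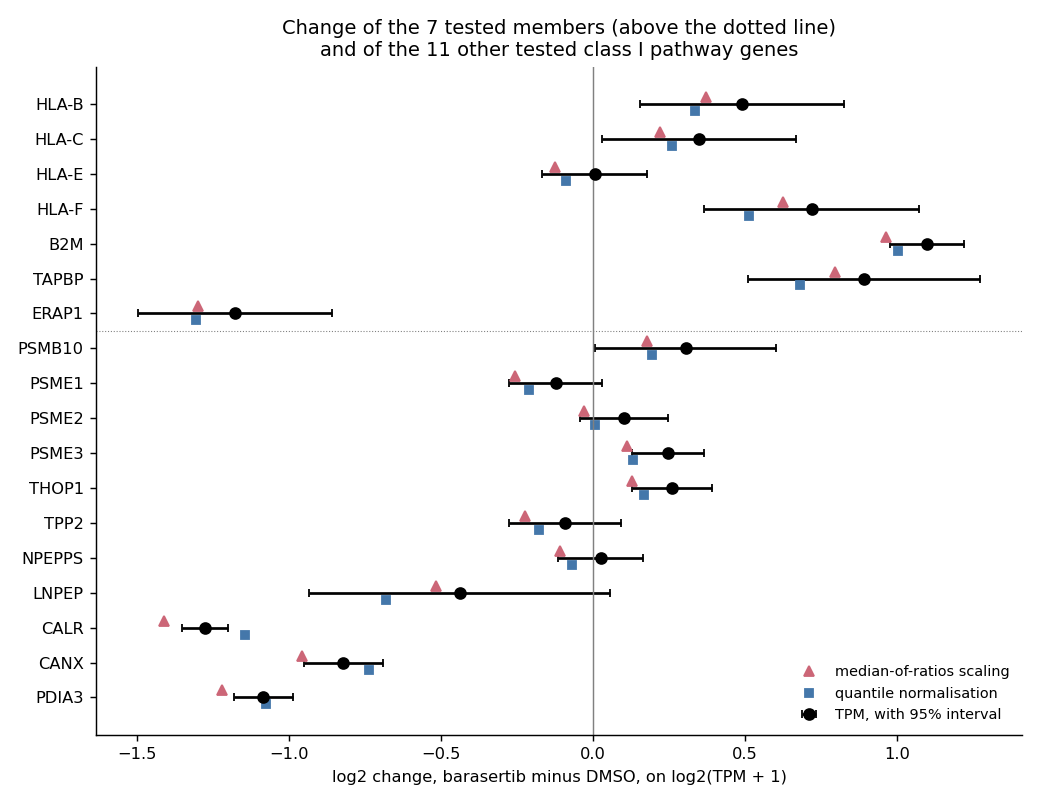
Points give the log2 change (barasertib minus DMSO) of the 7 tested members, above the dotted line, and of the 11 other tested class I pathway genes, with 95% intervals from limma in TPM; triangles and squares give the change after median-of-ratios scaling and quantile normalisation. B2M and TAPBP stay right of 0 and ERAP1, CALR, CANX and PDIA3 left of 0 under each scaling, while HLA-E moves from 0.00 to -0.13 and -0.09.

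Among transcription factors known to act on class I promoters, few passed the test. NLRC5, the activator specific to class I genes, was at 0.0600 TPM in barasertib replicate 1 and listed at 0 in the other 3 libraries. Of 14 tested factors USF1 rose (0.50, limma adjusted p = 0.0114) and NFYA, a subunit of NF-Y, fell (-0.36, limma adjusted p = 0.0421). Of all tested genes 22.0% were called higher and 7.44% lower. The list median was 0.07 beside 0.11 for all tested genes. After median-of-ratios scaling 4 factors fell, beside 1891 of all 13938 tested genes, and after quantile normalisation 3, beside 1590. The USF1 call was lost without barasertib replicate 1 (limma adjusted p = 0.0614; 0.00360 to 0.0614 across the alternatives), and the NFYA call without barasertib replicate 1 (limma adjusted p = 0.129), without DMSO replicate 1 (0.117) and without DMSO replicate 2 (0.0919; 0.0187 to 0.129 across the alternatives).

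Interferon signalling is known to drive class I expression, and a list of its receptors and signalling genes, not all of which act as drivers, was examined. Of 12 tested, 4 rose (IFNGR1, IFNGR2, JAK1 and SOCS3), against 22.0% of all tested genes, at a list median of 0.19 beside 0.11. SOCS3 was at 2.42 and 2.45 TPM with barasertib and 1.13 and 0.811 TPM with DMSO (DMSO mean 0.969 TPM). It therefore passed the level filter only through the barasertib group, and its call was lost after quantile normalisation (0.59, limma adjusted p = 0.0574). IFNGR2, a chain of the interferon gamma receptor, was at 30.7 and 29.7 TPM with barasertib and 17.6 and 19.0 TPM with DMSO (0.70, limma adjusted p = 0.00205). The kinase gene JAK1, at 30.3 and 30.01 TPM against 21.6 and 21.0 TPM, rose as well (0.48, limma adjusted p = 0.00461), and IFNGR2 and JAK1 were the 2 genes of this list that rose under all 3 scalings, against 10.0% of all tested genes. With libraries left out in the same order, 2, 2, 3 and 2 of these genes rose. STAT2, named after its values were seen, did not pass in TPM (-0.18) and fell after median-of-ratios scaling (-0.31) and quantile normalisation (-0.27).

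Of 26 genes known to respond to interferon, 13 were tested; 5 rose (ISG15, IFI6, BST2, RIGI and UBE2L6) and 2 fell (IFITM1 and IFITM3), against 22.0% of all tested genes higher and 7.44% lower, at a list median of 0.24 beside 0.11. ISG15, a ubiquitin-like protein, was at 27.7 and 25.6 TPM with barasertib and 6.69 and 8.74 TPM with DMSO (1.67, limma adjusted p = 0.000818). IFI6, at 24.2 and 21.4 TPM against 4.65 and 7.57 TPM, changed by 1.77 (limma adjusted p = 0.00231). UBE2L6, the enzyme that conjugates ISG15, was at 3.57 and 4.69 TPM against 1.55 and 0.776 TPM (1.26, limma adjusted p = 0.0107; 0.0760 without barasertib replicate 2, and 0.00320 to 0.0760 across the alternatives). IFITM3, an antiviral membrane protein, was at 479 and 467 TPM against 696 and 648 TPM (-0.50, limma adjusted p = 0.00143). ISG15, IFI6 and UBE2L6 rose and IFITM3 fell under all 3 scalings. IFITM1, which fell in TPM, was at -0.00 after quantile normalisation (-0.0022). With any 1 library left out 3 rose, and in the same order 1, 1, 1 and 2 fell. RSAD2 and GBP2 were listed at 0 in all 4 libraries, like PSMB8 and PSMB9. In all 12 genes of this list stayed below 1 TPM in every library and were not tested, but not all were at 0. MX1 was at 0.573 and 0.369 TPM with barasertib and 0.0315 and 0.0304 TPM with DMSO, and IFIH1 at 0.704 and 0.812 TPM against 0.272 and 0.260 TPM. IFI44L, at 0 and 0.0174 TPM against 0 and 0.0176 TPM, did not separate the groups.

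Class I-like molecules and ligands of natural killer cell receptors, measured through 13 genes of which 8 were tested, included 2 that rose, a share near the 22.0% of all tested genes called higher. MICA, a stress-induced ligand on chromosome 6 (hg19 start 31367561), was at 3.45 and 4.23 TPM with barasertib and 2.45 and 2.06 TPM with DMSO (0.57, limma adjusted p = 0.0390). PROCR, a class I-like receptor of protein C, was at 24.8 and 24.0 TPM against 18.9 and 18.7 TPM (0.36, limma adjusted p = 0.0131). The list median was 0.18 beside 0.11. After median-of-ratios scaling neither passed, and with libraries left out in the same order 0, 1, 1 and 0 rose.

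HLA class II genes, which serve antigen presentation to helper T cells, were mostly at or near 0. Of 12 genes, 6 were at 0 in all 4 libraries, among them the class II activator CIITA and HLA-DRA. Of 4 tested, 3 rose, against 22.0% of all tested genes called higher. They were CD74, the invariant chain, and HLA-DMA and HLA-DMB, which edit class II peptides. HLA-DMA and HLA-DMB rose under all 3 scalings, against 10.0% of all tested genes. The list median was 0.74 beside 0.11 for all tested genes. HLA-DMA was at 6.46 and 5.01 TPM with barasertib and 3.17 and 2.79 TPM with DMSO (0.75, limma adjusted p = 0.0154). HLA-DMB, at 2.31 and 1.65 TPM against 0.546 and 0.149 TPM, changed by 1.15 (limma adjusted p = 0.0173). Both of its DMSO values were below 1 TPM, so it passed the level filter only through the barasertib group. Without barasertib replicate 1 it was not tested, and 3 class II genes were. CD74 was at 3.50 and 2.41 TPM against 1.39 and 1.31 TPM (0.74, limma adjusted p = 0.0324) and did not pass under the other 2 scalings. With libraries left out in the same order, 0, 2, 2 and 2 rose. Summed leukocyte markers, the cells that most express class II, were at 5.36 and 4.90 TPM with barasertib and 4.14 and 3.32 TPM with DMSO, and their part in these results was not tested. Most of that sum was CD68 (3.90 and 3.49 TPM against 3.89 and 3.30 TPM), and ITGAM was at 0.734 and 0.709 TPM against 0.184 and 0.0219 TPM. The summed endothelial markers were at 1.80 and 1.87 TPM against 0.797 and 0.309 TPM, mostly CLDN5 (1.42 and 1.55 TPM against 0.589 and 0.135 TPM), while PECAM1 was at 0.137 and 0.121 TPM against 0.159 and 0.0916 TPM. The fibroblast markers summed to 13.6 and 13.7 TPM against 8.70 and 9.83 TPM, mostly PDGFRA (10.01 and 10.6 TPM against 7.02 and 7.63 TPM). PDGFRA rose in TPM (0.44, limma adjusted p = 0.0196) but did not pass under the other 2 scalings. COL1A1, below the level filter, was at 1.41 and 0.99 TPM against 0.497 and 0.21 TPM. LUM, also below it, was at 0.0959 and 0.294 TPM against 0 and 0.0492 TPM. COL3A1 overlapped between the groups, and COL1A2 and DCN were at or near 0 in every library.

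Genes around the HLA loci passed the test at shares close to those of all tested genes. HLA-F, HLA-E, HLA-C, HLA-B, PSMB8, TAP1 and TAPBP lie within chromosome 6 from 29691117 (the start of HLA-F) to 33282164 (the end of TAPBP) in hg19. In that span 97 genes with a single position were tested; 22 rose and 7 fell. Without the members there were 92, of which 19 rose (20.7%) and 7 fell (7.61%), against the 22.0% and 7.44% of all tested genes. Their median change was 0.10, beside 0.11.

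**Figure D4:**
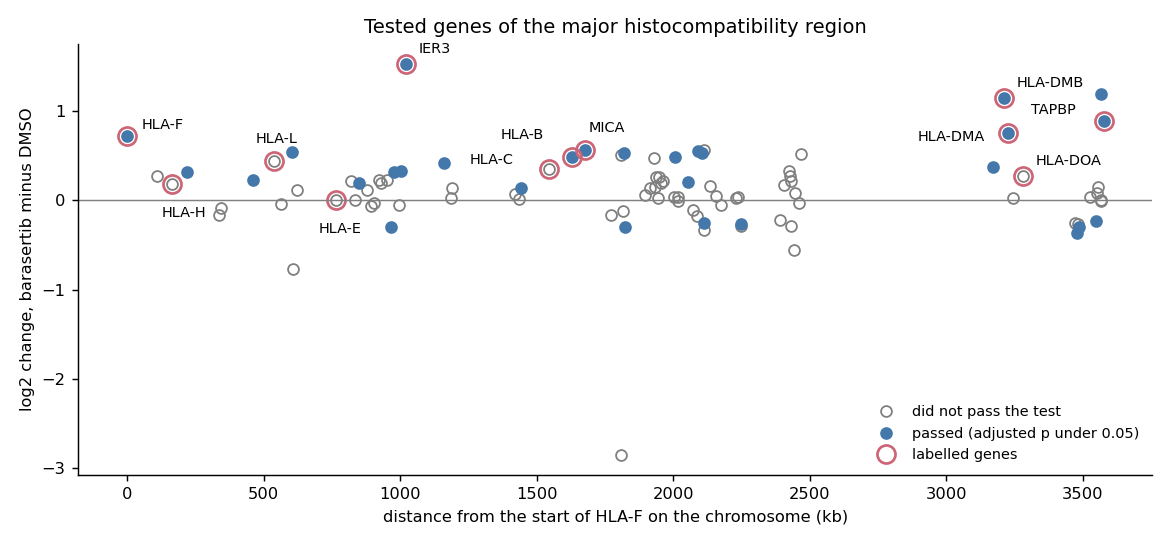
Each point is a tested gene between HLA-F and TAPBP on chromosome 6, by distance from the start of HLA-F in kb (horizontal) and log2 change, barasertib minus DMSO (vertical); filled points passed the test and circled genes are labelled. Of 97 genes 22 rose and 7 fell, and genes on both sides of 0 lie between the circled ones.

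The genes whose pattern over the 4 libraries was most like that of B2M, by Euclidean distance of centred log2(TPM + 1) values among 13810 genes outside the lists, were PEG10 (0.0462), PHF19 (0.04996) and HAS3 (0.0521). PEG10, an imprinted gene derived from a retrotransposon, was at 103 and 105 TPM with barasertib and 47.4 and 47.7 TPM with DMSO. In all 18 genes lay within a distance of 0.1 of B2M. For the sum of HLA-B, HLA-C, HLA-E and HLA-F the nearest were HTRA1 (0.0194), WDR44 (0.0211) and ASB7 (0.0284), none of which passed the test (limma adjusted p of 0.225, 0.0836 and 0.121), and 235 genes lay within 0.1. With 4 libraries such closeness is a description only.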

How the data were processed

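RNA-seq of 4 libraries was used, 2 per group. The submitters' processing notes name HISAT2, StringTie and the build hg19; versions, options and the treatment of reads matching several places were not given in the sources used here. Per the labels' protocols, a TruSeq mRNA kit was used, named once as standard and once as stranded. Each deposited file gives coverage (a signal, the mean depth over a gene), FPKM and TPM, per the file headers, and the deposited TPM sum to 1000000 per library. Rows sharing a gene ID were summed (336 to 407 IDs per library, none of them a member). RefSeq (GRCh38.p14) gave symbols for 27555 of 27685 IDs. All rows lie on main chromosomes.

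Changes in log2(TPM + 1) were tested with limma 3.58.1 (R 4.3.3). Group was the sole term, variances were moderated with a mean-variance trend (prior degrees of freedom 4.09, residual 2), tests were two-sided, and Benjamini-Hochberg adjustment covered all 13938 genes averaging 1 TPM or more. The fit was tested on simulated data. Python 3.11.15 made the tables and plots.

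The members and gene lists were chosen with earlier results of these data known. Named are the 9 members, HLA-G, TAP2, PSMB9, PSMB10 and NLRC5, up to 4 genes per list that passed with the largest change, and the 3 genes most alike to B2M and to the heavy chain sum; others were named after their values were seen. 1 gene of the other pathway genes was left out of its list and is not reported here. The motifs were chosen after the promoter sequences had been seen. Alternatives were other filters, pseudocounts, row choices, FPKM, 2 scalings, moderation, a replicate block and leaving out each library, where a lone library is assumed to vary like the other group.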

Additional observations from a re-analysis of the deposited data

How the results depend on the processing

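Over 16 alternative settings the 7 tested members gave 110 values: 90 kept direction and call, 13 lost the call, 2 gained it and 5, all of HLA-E, changed sign. HLA-E went from 0.00 in TPM to -0.02 with FPKM (-0.0170), -0.13 after median-of-ratios scaling, -0.0894 after quantile normalisation, -0.0437 without barasertib replicate 2 and -0.0128 without DMSO replicate 1; with 1 library left out it ran from -0.0437 to 0.0526, and it passed the test in none of these. Genes called higher numbered 3071 in TPM, 1534 after median-of-ratios scaling, 1649 after quantile normalisation and 1365 to 2181 with 1 library left out; genes called lower numbered 1037, 1891, 1590 and 601 to 699, and 674 without the mean-variance trend. Members called higher numbered 2 with a mean of at least 5 TPM (fewer members tested), 2 after quantile normalisation and 1 to 4 with 1 library left out. After median-of-ratios scaling 0 other class I pathway genes, 1 standard proteasome subunit, 3 interferon-stimulated genes and 0 natural killer ligands were higher, and 4 promoter factors and 1 interferon signalling gene lower. After quantile normalisation 0, 1, 3 and 1 of the same lists and 2 signalling genes were higher, and 3 promoter factors, 1 signalling gene and 1 interferon-stimulated gene lower. Without the trend 0 pathway genes, 1 subunit and 2 promoter factors were higher, and 0 promoter factors and 1 interferon-stimulated gene lower. Without a filter 1 natural killer ligand was higher, and 0 promoter factors and 1 interferon-stimulated gene lower. With a mean of at least 5 TPM 1 natural killer ligand and 0 class II genes were higher, and with robust moderation 2 promoter factors were lower. With 1 library left out, 0 to 2 pathway genes, 1 to 2 subunits, 0 to 1 promoter factors, 2 to 3 signalling genes, 3 to 3 interferon-stimulated genes, 0 to 1 natural killer ligands and 0 to 2 class II genes were higher, and 0 to 1 promoter factors and 1 to 2 interferon-stimulated genes lower. The cause of these shifts was not tested. Among the 90 values that kept direction and call are those of the row choices, which could not differ for the members. Over all tested genes, same-numbered libraries did not deviate together (correlation of deviations 0.02, 2 pairs). With so few pairs this cannot tell whether they shared a day or culture, and the labels do not say what the number marks. With the replicate number as a block 5 members were higher, HLA-C among them (0.35, limma adjusted p = 0.0353; 0.0306 to 0.266 across the alternatives), 3218 genes were higher and 1080 lower, 3 promoter factors were lower and 1 natural killer ligand higher. Few fragments stand behind TAP1, HLA-G, HLA-F and TAPBP, and 2 libraries per group limit every test here.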

Other observations

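Among class I pseudogenes, HLA-H was at 5.60 ± 0.571 TPM with barasertib and 4.81 ± 0.0294 TPM with DMSO (SD, n = 2; limma adjusted p = 0.287). HLA-L was at 1.40 ± 0.0237 TPM against 0.780 ± 0.231 TPM (SD, n = 2; limma adjusted p = 0.142), and HLA-J reached at most 0.141 TPM in any library. Between HLA-E and HLA-C on chromosome 6 lies IER3, an immediate early response gene named after its values were seen. It was at 20.1 and 18.7 TPM with barasertib and 6.01 and 6.02 TPM with DMSO, a change of 1.54 (limma adjusted p = 0.000357).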
